A study of Mus musculus with 14 samples.

Results

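miR-130a, miR-130b and miR-301a are 3 microRNAs of the miR-130 and miR-301 family, which share their seed sequence. They were followed through mouse lung development from embryonic day 12 to the adult. They were taken as the rows of TaqMan assays '454' (miR-130a), '456' (miR-130b) and '528' (miR-301a), which makes 3 of the 516 rows of deposited values. The names rest on the manufacturer's assay numbers, because the files give names and numbers apart. The plate layouts list mmu-miR-130a, mmu-miR-130b and mmu-miR-301a once each on card A in all 14 run files and not on card B.

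Total RNA came from whole lungs, pooled, of the outbred mouse strain ICR. They were sampled in the adult, at postnatal days 2 and 10 (P2 and P10), and at embryonic days 12, 14, 16 and 18 (E12 to E18), where the day of the plug was day 0. The labels give every sample as female and name no treatment or genetic change, and each of the 7 ages has 2 samples. The study names females only as the mice bred for timed pregnancies. It does not say that the pooled lungs were sexed. Nothing says whether the 2 samples of an age came from separate animals, so the p-values rest on a spread between samples that may be technical.

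A microRNA guides the Argonaute silencing complex to messenger RNAs that pair with it, above all through the seed near its 5′ end, and the paired transcripts are repressed. MicroRNAs with the same seed are therefore expected to share many predicted targets even where the rest of the sequence differs. In the lung this family is best known from the vessel wall, where it represses the nuclear receptor PPARγ and has been studied in pulmonary hypertension. miR-130a was described in human endothelial cells as a repressor of the homeobox genes GAX and HOXA5, and miR-301a is transcribed together with Ska2, whose protein belongs to the spindle and kinetochore complex.

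The mature sequences are shown because the shared seed defines the family and the remainder tells its members apart. They were taken from RefSeq (GRCm38.p6) and are written 5′ to 3′, with the seed, bases 2 to 8, in capitals.
miR-130a-3p: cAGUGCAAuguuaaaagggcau
miR-130b-3p: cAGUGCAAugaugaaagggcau
miR-301a-3p: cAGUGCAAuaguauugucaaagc
Counted from the 5′ end without gaps, miR-130b matched miR-130a at 20 of 22 positions, and at 12 of the 14 positions after the seed. miR-301a matched miR-130a at 12 of 22 positions and at 4 of the 14 after the seed. miR-130b matched miR-301a at 11 of 22 and at 3 of the 14. The sequences of miR-130a and miR-130b are thus the closest pair of the 3, and whether each assay reads its own member alone was not tested here.

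The 3 genes lie on different chromosomes. Mature miR-130a lies at chr2:84741116-84741137 on the minus strand, in the span of no other gene of the RefSeq table. miR-130b lies at chr16:17124071-17124092 on the minus strand, inside the span of the protein-coding gene 2610318N02Rik on the same strand. Its hairpin lies 257 bases from that of Mir301b, another gene of the family. miR-301a lies at chr11:87113054-87113076 on the plus strand, within the span of Ska2 on the same strand. The table gives gene spans only, so exon and intron were not told apart. Of 1679 mature mouse microRNA names read from the RefSeq table, 7 carry this seed: the 3 members, miR-721, miR-130c, miR-6341 and miR-6389. Not every chromosome was read. That miR-301b is not among the 7 is not evidence that it lacks the seed. No row could be paired with the other 4 or with miR-301b, so no value is given for them.

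The measurement is ΔCT, the threshold cycle of a microRNA minus that of the small nuclear RNA U6 in the same sample. The lower the ΔCT, the higher the level, and 1 cycle stands for a factor of 2 where amplification doubles at each cycle. Changes are given on the log2 scale as minus ΔCT, so a negative change is a lower level at the later age. All 3 members were measured in all 14 samples. Within a sample the deposited values lie close to whole-cycle steps: 71.4% to 89.7% of the values of a sample were within 0.1 cycle of its commonest decimal, as were 42 of the 42 values of the members. The resolution is therefore about 1 cycle, and 2 samples on the same step can look closer than the method could tell. In each sample 272 to 335 assays gave a value. Of all rows, 350 were kept for testing because both samples of at least 1 age were measured, and 219 were measured in every sample. Since these are whole lungs, a lower level cannot be told apart as fewer cells that hold the microRNA or less of it in each cell. Rows of microRNAs typical of leukocytes, red cells, muscle, epithelium or endothelium could not be found by name, so the labelled tissue was not checked against markers.

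The 3 members shared a fall between E18 and P2 against U6, which was not called against the global mean. Their mean courses before and after it differed, but no test compared members within gestation or within the postnatal ages. Against U6, the mean level of miR-130a was greatest at E16 and E18 and after birth lay near that of E12. miR-130b was nearly level through gestation and its samples were lower at every postnatal age, and the span of miR-301a lay between those of the other two. Over the 7 ages the means of miR-130a spanned 2.14 log2 units (4.4-fold), those of miR-130b 3.99 (15.9-fold) and those of miR-301a 3.04 (8.25-fold). All 3 changed over the course in limma's moderated F test (adjusted p = 0.0351 for miR-130a, 0.000493 for miR-130b and 0.0108 for miR-301a), with p-values adjusted by the Benjamini-Hochberg method over the 350 assays. The same test called 56.9% of these assays. The call of miR-130a was the least firm. It was lost in 8 of the 14 fits that left out 1 sample and in an ordinary F test without limma's moderation (adjusted p = 0.0584).

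**Figure D1:**
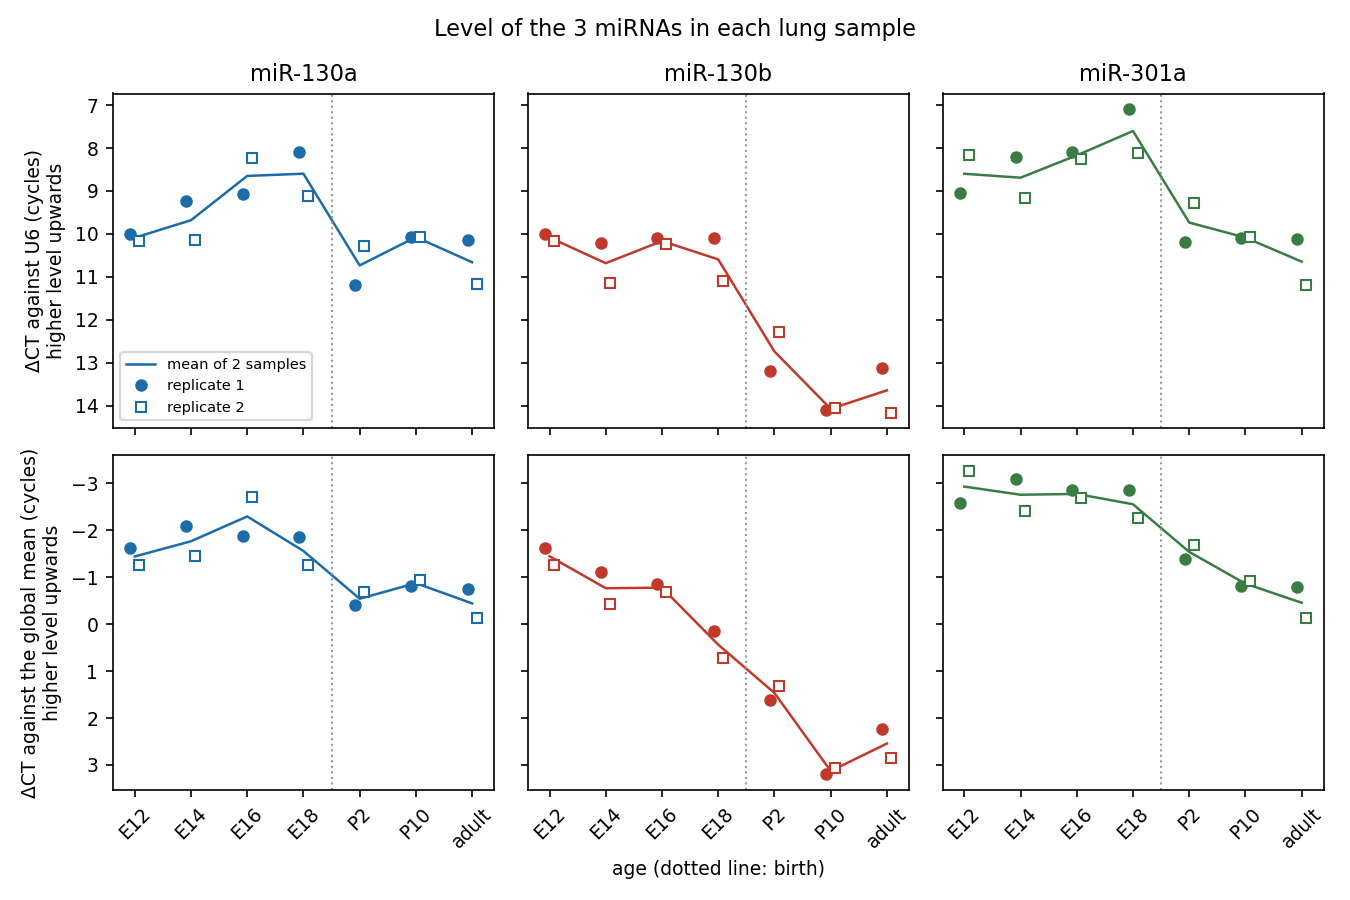
ΔCT of each member (columns) in every sample by age, against U6 (upper row) and against the global mean, the mean ΔCT of those 219 assays in each sample (lower row). Filled circles are replicate 1, open squares replicate 2, lines join age means, and the axes are turned so that higher levels are higher up. The postnatal samples of miR-130b and miR-301a lie below all embryonic ones in level in both scalings, those of miR-130a only against the global mean. Against U6 the closest miR-301a values, 9.28 (P2 replicate 2) and 9.16 cycles (E14 replicate 2), are nearer than the resolution of about 1 cycle. The same holds for miR-130a, where 10.17 (E12 replicate 2) lies between 10.08 (P10 replicate 1) and 10.28 (P2 replicate 2).

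miR-130a had ΔCT values of 10.0 and 10.2 at E12, 9.23 and 10.1 at E14, 9.08 and 8.22 at E16, and 8.08 and 9.11 at E18. After birth it had 11.2 and 10.3 at P2, 10.1 and 10.1 at P10, while adult lungs had 10.1 and 11.2. The E16 and E18 samples were the highest in level against U6, all 4 above every sample of E12 and of the postnatal ages. The share of all assays for which this held was not counted. The P10 and adult samples overlapped those of E12. In the order of mean levels, E18, E16, E14, P10, E12, adult and P2, the only neighbours whose samples did not overlap were E16 and E14. Their nearest values, 9.08 and 9.23 cycles, were closer than the resolution of about 1 cycle. Between adult and E12 the change was -0.57 ± 0.56 (SE; adjusted p = 0.407), and no difference was detected. Scaled to the global mean, the mean level was highest at E16 (-2.30 cycles). There the E18 samples (-1.86 and -1.26) overlapped those of E12 (-1.62 and -1.26).

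miR-130b had ΔCT values of 10.00 and 10.2 at E12, 10.2 and 11.1 at E14, 10.1 and 10.2 at E16, and 10.1 and 11.1 at E18. It had 13.2 and 12.3 at P2, 14.1 and 14.1 at P10, while adult lungs had 13.1 and 14.2. The embryonic samples lay close together against U6, and the postnatal samples formed a lower group that did not touch them. In the order of mean levels, E12, E16, E18, E14, P2, adult and P10, the only neighbours whose samples did not overlap were E14 and P2, on either side of birth. The adult level was 11.8-fold lower than that of E12 (log2 change -3.56 ± 0.53, adjusted p = 0.000417). Scaled to the global mean, the embryonic samples spread from -1.63 to 0.73 cycles, with those of E18 the lowest of them in level.

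miR-301a had ΔCT values of 9.04 and 8.16 at E12, 8.22 and 9.16 at E14, 8.09 and 8.25 at E16, and 7.08 and 8.12 at E18. It had 10.2 and 9.28 at P2, 10.1 and 10.1 at P10, while adult lungs had 10.1 and 11.2. Again the postnatal samples lay below all embryonic ones in level, with the closest pair, P2 replicate 2 and E14 replicate 2, 9.28 and 9.16 cycles. In the order E18, E16, E12, E14, P2, P10 and adult, the samples of E14 and P2 did not overlap, nor did those of P10 and the adult, although the nearest P10 and adult values were both 10.1 cycles. The adult level was 4.14-fold lower than that of E12 (log2 change -2.05 ± 0.57, adjusted p = 0.0155). Without E12 replicate 2 this change was -1.60 (adjusted p = 0.0988), and without adult replicate 2 it was -1.51 (adjusted p = 0.105).

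Hence 2 of the 3 members were called lower in the adult than at E12, against 23.4% of all assays called lower and 24.6% called higher. Scaling each sample to its global mean in place of U6 gave -1.0 (adjusted p = 0.0618) for miR-130a, -3.99 (1.5e-05) for miR-130b and -2.48 (0.000525) for miR-301a, with 31.7% of assays called lower. The median change of the 219 assays between adult and E12 was 0.45 against U6 and 0.02 against the global mean, and the members lay below it in both.

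The step across birth was nearly the same size in all members, as values near whole-cycle steps allow. Other assays changed by the same step against U6, among them assays 377 (-2.14) and 189 (-2.13). At P2 the change from E18 was -2.14 ± 0.56 for miR-130a (4.4-fold lower, adjusted p = 0.0314), -2.15 ± 0.53 for miR-130b (4.43-fold lower, 0.0254) and -2.13 ± 0.57 for miR-301a (4.39-fold lower, 0.0343). All 3 were called lower, as were 23.1% of the 350 assays. The 4 P2 and E18 samples of each member did not overlap, but the share of all assays for which this held was not counted. Against U6 the median change of the assays measured in all samples was also negative, at -1.13. The non-overlap is therefore not taken as particular to the members. Adult levels were also lower than those of E18 in all 3 (29.1% of assays called lower and 5.43% higher). The changes were -2.06 for miR-130a (adjusted p = 0.0193), -3.05 for miR-130b (0.00163) and -3.04 for miR-301a (0.0027). For miR-130a the change was -1.12 against the global mean (adjusted p = 0.057), -1.55 without E18 replicate 1 (0.127) and -1.55 without adult replicate 2 (0.126), so its call was lost in each. Against the global mean miR-130b and miR-301a changed by -2.11 (0.0015) and -2.10 (0.00271).

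The shift across birth was not particular to these microRNAs. The median of the 219 assays changed by -1.13 between P2 and E18 against U6 and by -0.01 against the global mean. Against the global mean, which takes out such a shared shift, the members changed by -1.02 ± 0.40 (miR-130a), -1.03 ± 0.35 (miR-130b) and -1.02 ± 0.38 (miR-301a), with adjusted p of 0.211, 0.19 and 0.205, and only 2% of all assays were called lower. E18 replicate 1 had the lowest mean ΔCT over the 219 assays, 9.94 cycles against 10.4 to 11.6 in the other samples. Without it the members changed by -1.62, -1.64 and -1.61 against U6, and without P2 replicate 1 by -1.69, -1.69 and -1.68, with adjusted p between 0.145 and 0.18. P2 replicate 1 and E18 replicate 2 were the only samples of these ages whose card A run files were last saved on the same day. Between this pair the changes were -2.07, -2.09 and -2.07 against U6. They were -0.86, -0.87 and -0.85 against the global mean.

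**Figure D2:**
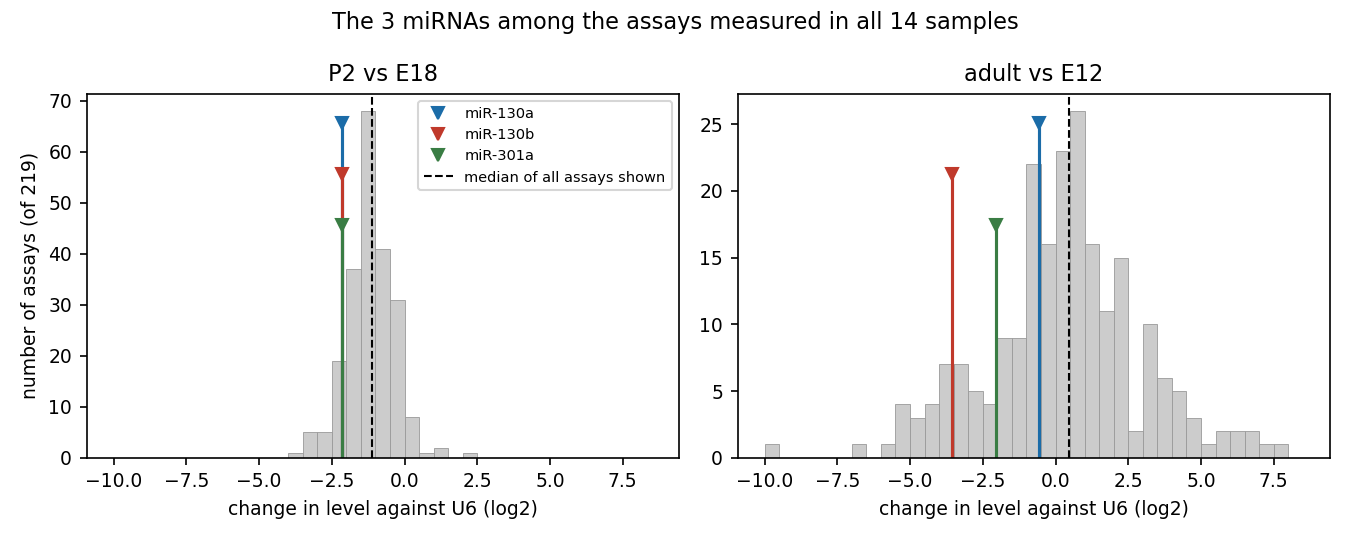
Histograms of the log2 change in level against U6 of the 219 assays measured in all samples, for P2 vs E18 (left) and adult vs E12 (right), with the 3 members marked by coloured lines and the median by a dashed line. At birth the members stand together near -2.1, below the median of -1.13, where other assays on the same whole-cycle steps stand too. Over the whole course the members are spread between -0.57 and -3.56.

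During gestation the mean changes of the members differed, though no test compared members there. Between E18 and E12 the change was 1.49 ± 0.56 for miR-130a (2.81-fold higher, adjusted p = 0.0738), 1.00 ± 0.57 for miR-301a (adjusted p = 0.227) and -0.51 ± 0.53 for miR-130b (adjusted p = 0.522). Before adjustment p was 0.0262 for miR-130a. None of the 3 was called against U6, where 30% of assays were called higher and 2% lower, and the median of the 219 assays was 1.01. Against the global mean miR-130b was 3.69-fold lower at E18 than at E12 (-1.88, adjusted p = 0.00467; 15.7% of assays called lower), miR-130a changed by 0.12 and miR-301a by -0.38. The sign of the change of miR-301a thus depended on the scaling.

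Between P10 and P2 the change of miR-130b was called in 1 of the 2 scalings. It was -1.34 ± 0.53 against U6 (adjusted p = 0.141; 6.29% of assays called lower) and -1.66 ± 0.35 against the global mean (adjusted p = 0.014; 8% called lower). The changes of miR-130a and miR-301a over this step were 0.66 and -0.35 against U6 and were not called in either scaling. Between P10 and P2 samples saved on the same day, miR-130b changed by -1.81, miR-301a by -0.81 and miR-130a by 0.20 against U6. Those changes were -1.88, -0.88 and 0.13 against the global mean. Against U6 no member was called at the other 4 steps, where p before adjustment was 0.0986 or more. Few assays were called there at all: 0.857% lower and 0.857% higher between E14 and E12, 0.857% higher between E16 and E14, 0.857% lower and 4.86% higher between E18 and E16, and 2.86% lower and 3.71% higher between adult and P10.

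**Figure D3:**
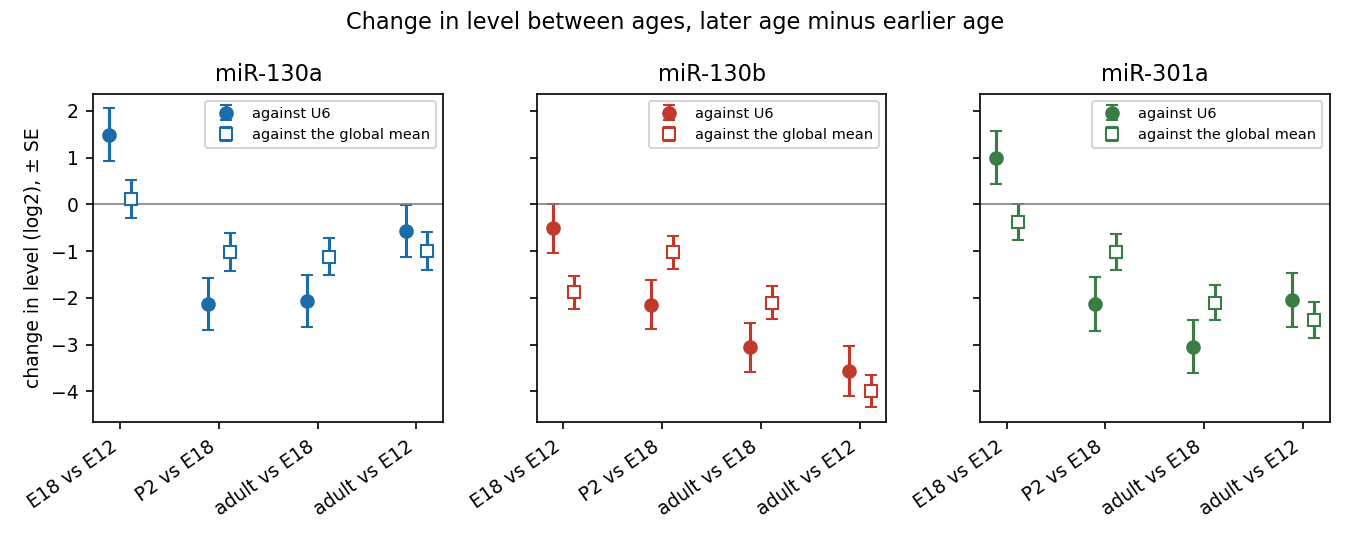
Log2 change in level of each member between 2 ages, the later minus the earlier, with the SE of the fit as bars; filled circles are against U6 and open squares against the global mean. At P2 vs E18 the 3 members give nearly the same value within each scaling, near -2.1 and -1.0, as values on the same whole-cycle steps do.

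Seen over all samples, miR-130b ranged between 12.3 and 14.2 cycles in the 6 postnatal samples (median 13.6) and between 10.00 and 11.1 in the 8 embryonic samples (median 10.2). miR-301a ranged between 9.28 and 11.2 (median 10.1) in postnatal and between 7.08 and 9.16 (median 8.19) in embryonic samples. miR-130a ranged between 10.1 and 11.2 (median 10.2) in postnatal and between 8.08 and 10.2 (median 9.17) in embryonic samples, and overlapped, with 3 of the 6 postnatal samples below all embryonic ones in level. At a resolution of about 1 cycle this overlap is not settled. P10 replicate 1 had 10.08 and P2 replicate 2 had 10.28 cycles, on either side of 10.17, the highest embryonic value. The separation of miR-301a likewise rests on 9.28 against 9.16 cycles. Among the 219 assays, 29 (13.2%) had all postnatal samples lower in level than all embryonic ones, and 2 of the 3 members were among them. Against the global mean there were 18 such assays (8.22%), and these included all 3 members.

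Because 2 members of a sample share the U6 value, the difference between them does not depend on the reference gene. Assays may differ in efficiency, so it is the change in such a difference that can be read, not its size. The difference of miR-130b minus miR-130a was near 0 at E12 (-0.01 and 0.00 cycles). It was 0.98 and 1.02 at E14, 1.01 and 2.02 at E16, and 1.99 and 2.00 at E18. At P2 it was 2.00 and 2.01, at P10 3.99 and 4.01, and adult lungs had 2.99 and 2.99. The samples of E14, E16 and E18 overlapped at neighbouring ages, with the 2 of E16 a step apart, those of E18 and P2 lay on the same step, and the widest differences were those of P10.

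miR-130b minus miR-130a averaged 3.0 ± 0.89 cycles in postnatal and 1.13 ± 0.84 in embryonic samples (SD, n = 6 and 8), which differed by 1.87 cycles (exact two-sided permutation test, p = 0.00333, adjusted p = 0.005 over the 3 pairs). miR-130b minus miR-301a averaged 3.33 ± 0.51 in postnatal and 2.12 ± 0.65 in embryonic samples and differed by 1.22 cycles (exact permutation p = 0.00333, adjusted p = 0.005). miR-301a minus miR-130a averaged -0.33 ± 0.52 in postnatal and -0.99 ± 0.54 in embryonic samples, and the difference of 0.66 cycles did not pass the test (exact permutation p = 0.0912, also after adjustment). The smallest p that the 3003 arrangements of samples allow is 0.000666. Samples of 1 age are not independent draws of all ages. With the 7 age means as units the smallest possible p is 0.0571, and both differences that involve miR-130b gave it in the exact permutation test. That result rests on gaps far below the resolution of about 1 cycle. For miR-130b minus miR-130a the nearest means were 1.997 at E18 and 2.006 at P2. For miR-130b minus miR-301a they were 2.992 at E18 and 2.999 in the adult. The order of these ages cannot be told, so no support is drawn from this p.

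**Figure D4:**
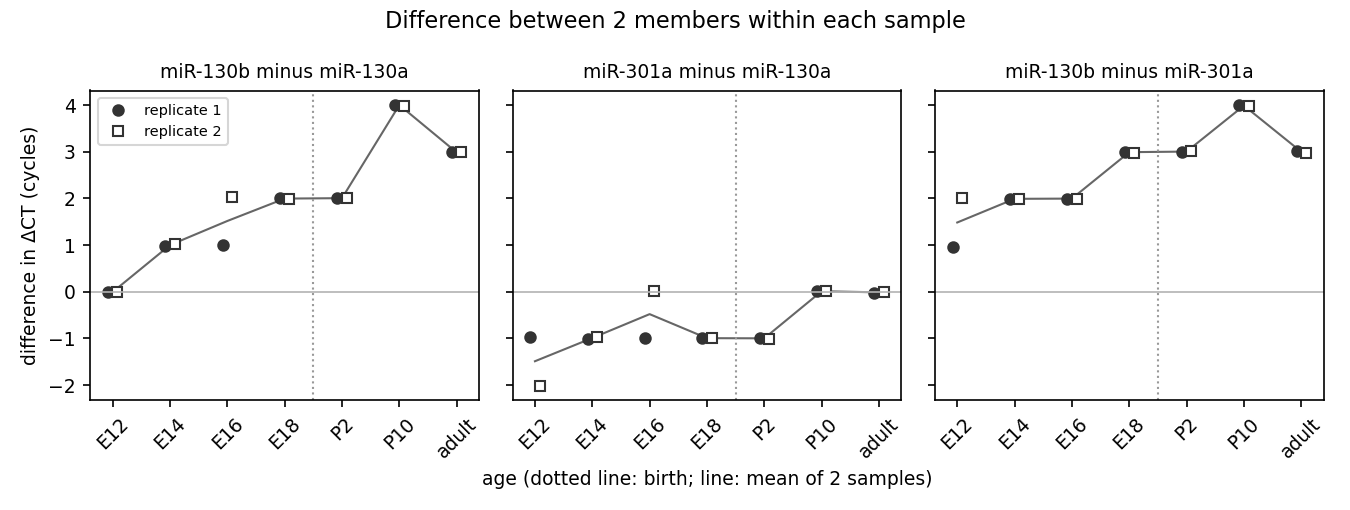
Difference in ΔCT between 2 members of the same sample, by age; filled circles are replicate 1, open squares replicate 2, and lines join the means. The differences fall near whole cycles, and none of the 3 pairs changed between E18 and P2: miR-130b minus miR-130a was 2.00 and 2.01 cycles at P2 and 1.99 and 2.00 at E18.

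miR-130b minus miR-301a was 0.96 and 2.01 cycles at E12, 1.99 and 2.00 at E14, and 2.00 and 2.00 at E16. The difference was 2.98 and 3.0 cycles at E18, 3.0 and 3.01 at P2, 3.98 and 4.01 at P10, and 2.98 and 3.02 in adult lungs. From E18 onward it returned to about 3 cycles at each age except P10, where both samples were 1 step wider. miR-301a minus miR-130a was -1.0 and -0.99 cycles at both E18 and P2. In the samples of P10 and of adult lungs it lay between -0.03 and 0.02.

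Across the 14 samples the level of miR-301a had a Pearson r of 0.84 with miR-130a and 0.89 with miR-130b, and miR-130b and miR-130a had 0.68 (0.80, 0.94 and 0.76 against the global mean). These points share the U6 value of each sample and the shift across birth, and they are given as a description. Among the other assays measured in all samples, assay 1186 was most like miR-130b (r = 0.96 in both scalings). For miR-301a it was assay 2600 against U6 (r = 0.97, and 0.96 against the global mean) and assay 1186 against the global mean (r = 0.97, and 0.93 against U6). The assay most like miR-130a had an r of 0.94 against U6 and 0.86 against the global mean. Against U6, assay 1186 changed by -5.10 between adult and E12 (adjusted p = 5.05e-05) and assay 2600 by -2.07 (0.0091). The files pair neither number with a microRNA name.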

How the data were processed

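The deposited values were ΔCT against U6, which the authors imported as log2 values. They were made from TaqMan Low Density Array cards A and B after Megaplex reverse transcription. The plate files hold layouts and no cycles, and were used for names and file days. Of 7224 values, 2888 were blank and were set to the highest deposited ΔCT (19.9). Another 5 values below 0.001 were treated as blank and set to it as well, although a low ΔCT stands for a high level. For the global mean, samples were scaled before the blanks were set.

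limma 3.58.1 (R 4.3.3) fitted 1 mean per age over 14 samples and 350 assays, with an F test over 6 steps and 9 single comparisons, and a threshold of 0.05 on adjusted p. The script was tested on simulated data. Differences between members were tested by exact permutation in Python 3.11.15.

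The members, lists and tests were chosen with earlier results of these data known. Named were the 3 members and, by Pearson r, the assays most like each. Lists of related and cell type microRNAs could not be matched to rows and were given no value. The replicate numbers of the labels do not pair samples.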

Additional observations from a re-analysis of the deposited data

How the results depend on the processing

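The falls of miR-130b and miR-301a between adult and E18 kept their call in all settings but the file day block, and that of miR-130b between adult and E12 kept it in all settings run, which do not include that block, since no value could be had for it there. Global mean scaling gave P2 vs E18 changes of -1.02, -1.03 and -1.02 (miR-130a, miR-130b and miR-301a; adjusted p = 0.211, 0.19 and 0.205), not called, and likewise -1.12 for miR-130a between adult and E18 (0.057). It made the change of miR-130b between E18 and E12 a call, at -1.88. It took out the shared shift by construction and left 8 assays called between P2 and E18, in place of 81. Together with the 219 assays alone, the same values of the birth step had an adjusted p of 0.118, 20 assays were called, and miR-130a was called lower in the adult than at E12, at -1.0 (0.0361). The 219 assays alone and blanks as missing, both of which test fewer values, made the change of 1.49 in miR-130a between E18 and E12 a call (0.0146 and 0.0489). The 219 assays alone also made a call of miR-130b between P10 and P2, at -1.34 (0.0421). With the global mean that change was -1.66, called with all assays (0.014) and with the 219 (0.00307), where miR-130b was also called between E18 and E16, at -1.21 (0.0427).

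The F test of miR-130a, with a range of 2.14, gave an adjusted p of 0.0584 without limma's moderation and 0.0543 with the replicate block. Same-numbered samples of different ages deviated with correlations between -0.416 and 0.243, 3 of 21 above 0.1, so the block was not used, and it changed no other call of a member.

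The last-saved day of card A as a fixed block left 2 residual degrees of freedom and gave P2 vs E18 changes of -2.07 (adjusted p = 0.129), -2.09 (0.0804) and -2.07 (0.129), and adult vs E18 changes of -1.95 (0.345), -2.97 (0.0689) and -2.91 (0.218), none called. As a random block the day had a correlation of 0.219.

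Leaving out single samples gave, for miR-130a, a range over the ages of 2.06 to 2.65 (adjusted p 0.0306 to 0.0763), -2.65 to -1.62 between P2 and E18 (0.0274 to 0.174) and -2.58 to -1.55 between adult and E18 (0.0175 to 0.127). The F test of miR-130a was lost without E12 replicate 1 (0.056) or 2 (0.0564), E16 replicate 2 (0.0763), E18 replicate 1 (0.0723), P2 replicate 1 (0.0581), P10 replicate 1 (0.0607) or 2 (0.0625), or adult replicate 2 (0.0513). Its adult vs E18 call was lost without E18 replicate 1 (-1.55, 0.127) or adult replicate 2 (-1.55, 0.126). The change between P2 and E18 was -2.66 to -1.64 for miR-130b (0.023 to 0.155) and -2.65 to -1.61 for miR-301a (0.0279 to 0.18), and that of miR-301a between adult and E12 was -2.58 to -1.51 (0.0136 to 0.105). Where 1 sample of an age remained, the spread of the other ages stood in for its own. Some changes that were not called turned sign. Against the global mean, with all assays or the 219, miR-301a changed by -0.38 between E18 and E12 and by -0.22 between E18 and E16, and miR-130a by -0.73 between E18 and E16. The day as a random block gave 0.012 for miR-301a between E14 and E12, and as a fixed block 0.38 there and 0.082 for miR-130b between E18 and E16. Leaving out single samples gave -0.56 to 0.38 for miR-301a and -0.044 to 0.86 for miR-130a between E14 and E12, -0.46 to 0.57 for miR-130a and -0.94 to 0.082 for miR-130b between E18 and E16, -0.81 to 0.11 for miR-301a between P10 and P2, and -0.088 to 0.95 for miR-130b between adult and P10. The difference of miR-301a minus miR-130a was 0.51 to 0.80 cycles (exact permutation p 0.0256 to 0.176), past 0.05 without E16 replicate 2 (0.80, p = 0.0256) and without P2 replicate 2 (0.79, p = 0.0482). Without E18 and P2 it was 0.99 (exact permutation p = 0.0476). With age means as units, the differences of 1.87 and 1.22 cycles gave p = 0.0571 by exact permutation. That p rests on an order of age means that lie closer than the resolution. The values near whole-cycle steps limit what can be told apart to about 1 cycle.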
